A study of Caenorhabditis elegans with 154 samples.

Results

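Carbonic anhydrases are zinc enzymes that convert carbon dioxide and water to bicarbonate and a proton, and back. The *C. elegans* genome encodes an alpha-class family named *cah*, and a separate beta class, *bca*, of unrelated fold. Through bicarbonate and protons these enzymes touch pH control, ion transport across epithelia, the sensing of carbon dioxide and the carboxylases that use bicarbonate as substrate. The 6 genes described here, *cah-1* (F54D8.4), *cah-2* (D1022.8), *cah-3* (K05G3.3), *cah-4* (R01E6.3), *cah-5* (R173.1) and *cah-6* (T28F2.3), were taken by sequence name from the 46744 genes of the expression tables. The family was chosen with earlier results of these data known, *cah-4* among them.

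The data are RNA-Seq profiles of single L1 larvae that hatched overnight without food in M9 buffer with polyethylene glycol at a density of 1, of 5, of 20 and of 100 eggs/μL, so that the comparison asks which transcripts follow the crowding of arrested larvae. There were 14, 22, 20 and 24 animals of the *fog-2* strain at these densities, and 13, 22, 16 and 23 animals of N2, the wild-type laboratory strain. Mothers homozygous for *fog-2* make no sperm, so these L1s came from matings with males, and the sex of each L1 is not given in the labels. The parents of all groups had been kept fed, and the buffer was the same for all groups. Levels are tpm, a share of all transcripts of an animal scaled to the same total in every animal and corrected for transcript length. Comparisons between genes take this correction as sufficient, which was not tested. No read counts came with them, so the depth behind each value is unknown from these tables and no counting interval is given. A gene listed at 0 was not detected in that animal at its depth, and may still be expressed there. The labels do not say whether animals of a density came from separate cultures, so p-values measure the spread between single animals. The strains were in separate tables, and their levels are given side by side without a test.

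On the WBcel235 assembly, 3 of the 6 genes lie on the X chromosome. These are *cah-4* at X:13542574-13544599 on the plus strand, *cah-3* at X:16487481-16489397 on the plus strand and *cah-5* at X:7020033-7023950 on the plus strand. The other members are *cah-1* at III:5083206-5085629 on the minus strand, *cah-2* at II:7480751-7483109 on the minus strand and *cah-6* at I:3628246-3631112 on the plus strand. The end of *cah-6* overlaps *jmjc-1* on the opposite strand, from position 3631091, and reads there cannot be told apart unless strand was used in counting. The annotation gives *cah-4* as transcripts a and b of 6 exons each. Both tables hold these transcripts in 1 joined row, so that their levels could not be separated.

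Among the 6 genes, *cah-4* and *cah-3* were the abundant members. Over all densities, *fog-2* animals had a mean *cah-4* level of 126 tpm ± 66.6 (SD, n = 80), while N2 animals had 157 tpm ± 105 (SD, n = 74). For *cah-3* the same means were 130 tpm ± 80.2 and 89.9 tpm ± 61.4. By mean level *cah-4* stood at percentile 95.5 of the genes with any signal in *fog-2* and 96.3 in N2, and *cah-3* at 95.6 and 94.3. *cah-3* was above 0 in all 80 *fog-2* and 74 N2 animals and *cah-4* in all but 1 *fog-2* animal at 20 eggs/μL.

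The remaining members were low beside this pair. By mean level they stood between percentiles 70.3 and 83.1 of the genes with any signal in *fog-2*, and between 52.7 and 80.7 in N2. Mean levels over all densities were 26.1 tpm ± 26.3 for *cah-2*, 13.97 tpm ± 21.6 for *cah-1*, 11.7 tpm ± 12.2 for *cah-5* and 10.3 tpm ± 8.08 for *cah-6* in *fog-2* (SD, n = 80). In N2 they were 18.7 tpm ± 17.5 for *cah-6*, 14.9 tpm ± 13.6 for *cah-5*, 9.77 tpm ± 11.9 for *cah-2* and 2.56 tpm ± 4.79 for *cah-1* (SD, n = 74). The N2 animals thus listed *cah-1* lowest, at 0 in 39 of 74 animals, against 22 of 80 in *fog-2*. Of 40 pairs of neighbors in the order of mean levels within a strain and density, 37 had overlapping ranges of mean ± SD. The 3 exceptions were the gaps below *cah-3* at 1 egg/μL in both strains and below *cah-4* at 100 eggs/μL in *fog-2*. Neighbors in the order of the 4 low members thus overlapped in every group, while members farther apart in it need not.

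**Figure D1:**
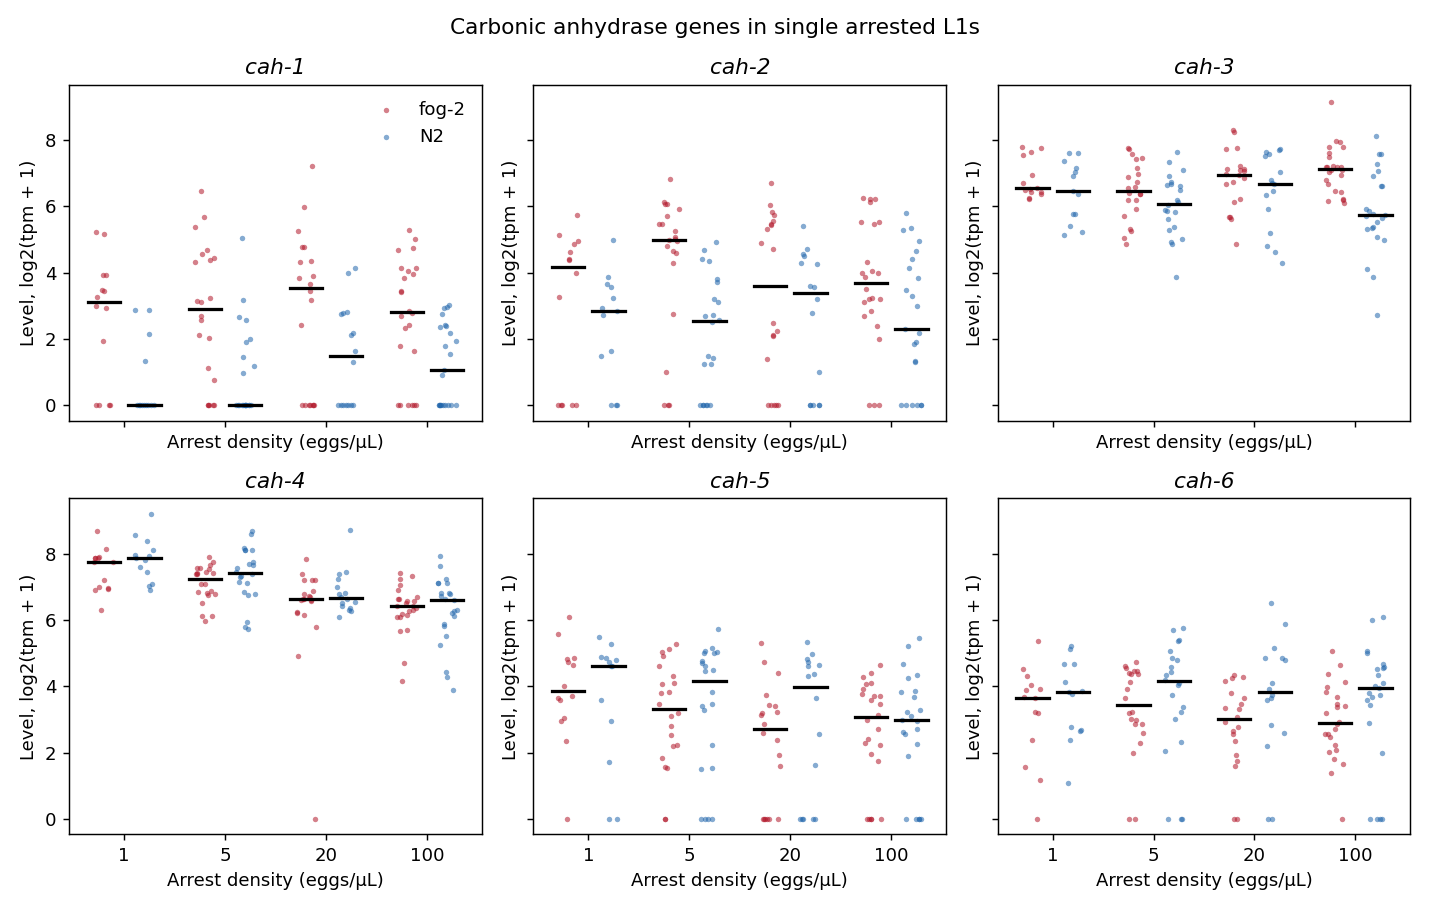
Levels of the 6 carbonic anhydrase genes as log2(tpm + 1) against arrest density in eggs/μL, with a point for each L1, *fog-2* in red and N2 in blue, and black bars at the group medians. The *cah-4* medians fall from 213 to 84.5 tpm in *fog-2* and from 233 to 95.8 tpm in N2 between 1 and 100 eggs/μL, while points of *cah-1* and *cah-2* are spread from 0 upward at every density.

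*cah-4* fell with density in both strains. In *fog-2* L1s at 1 egg/μL its level had a median of 213 tpm, with a lowest value of 78.3 and a highest of 409 tpm. The median was 151 tpm at 5 eggs/μL (61.3 to 237) and 98.5 tpm at 20 eggs/μL (0 to 229). At 100 eggs/μL it was 84.5 tpm (16.8 to 171). All 24 *fog-2* animals at 100 eggs/μL lay below the median of the 1 egg/μL animals, and 8 of 14 animals at 1 egg/μL lay above the highest animal at 100 eggs/μL, although the groups overlapped.

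N2 L1s had a median *cah-4* level of 233 tpm at 1 egg/μL, with values from 119 to 587 tpm. The median was 169 tpm at 5 eggs/μL (52.4 to 407), 101 tpm at 20 eggs/μL (66.7 to 415) and 95.8 tpm at 100 eggs/μL (13.7 to 242). Here 17 of 23 animals at 100 eggs/μL lay below the lowest animal at 1 egg/μL, and 22 of 23 lay below the 1 egg/μL median. The mean level at 1 egg/μL was 2.66 times that at 100 eggs/μL in N2 and 2.23 times in *fog-2*. Because whole animals were measured, fewer cells that express a gene and less RNA per cell cannot be told apart.

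For the comparison of 100 with 1 egg/μL, log2(tpm + 1) was fitted with limma over 16457 genes, those at 1 tpm or more in 13 or more animals of these densities. Strain was a covariate, and p-values were adjusted over all of these genes by the Benjamini-Hochberg method. A gene passed at an adjusted p under 0.05. The scale understates the change of low genes. On this scale *cah-4* fell by 1.36 (SE 0.21, 95% interval -1.77 to -0.95, adjusted p = 2.13e-06) and ranked 31st by p among the genes tested. Fitted alone, *fog-2* gave -1.17 (SE 0.24, adjusted p = 0.00264) and N2 gave -1.56 (SE 0.34, adjusted p = 0.0200). Two-sided permutation tests of *cah-4* gave unadjusted p of 4e-05 in *fog-2* and 2e-05 in N2, the latter the smallest that 100000 resamples can give. Of the 6 members, 1 passed as lower and 0 as higher in each of these fits. The share of all genes tested that passed as lower was 2.05% in the merged fit, 1.11% in *fog-2* and 0.17% in N2, and the share that passed as higher was 10.3%, 5.65% and 0.079%. The median change of the 6 members in the merged fit was -0.17, beside 0.24 for all genes tested.

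The difference between the strains in the *cah-4* change was 0.38 (*fog-2* minus N2, SE 0.41, 95% interval -0.44 to 1.21, adjusted p = 0.917 for the interaction term), which was not past the threshold. No gene passed for this term in limma, and 1113 of 16457 had an unadjusted p under 0.05. The first digit of the animals' names, whose meaning is not given in the labels, marked sets within a density. For *fog-2* at 1 egg/μL it was read from the column names, of which 8 match no labelled animal, and the labels give other digits there. In that group the mean *cah-4* level of the sets with digits 1, 2 and 3, of 3, 5 and 6 animals, was 225, 177 and 200 tpm. It was 105, 71.7 and 88.6 tpm in *fog-2* at 100 eggs/μL. In N2 it was 277, 211 and 268 tpm, from 1, 4 and 8 animals, against 111.7, 60.8 and 113.5 tpm. Each set was lower at 100 than at 1 egg/μL, in both strains. With sets averaged, or without digit 2 or 3, the change kept its sign in each strain alone but no longer passed, with adjusted p of 0.0550 to 0.0864 in *fog-2* and 0.285 to 0.910 in N2.

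Between neighboring densities the decrease of *cah-4* was spread over the series, and no single step passed. Over all animals and 18896 genes, *cah-4* had a change of -0.44 from 1 to 5 eggs/μL (SE 0.23, adjusted p = 0.510). The step from 5 to 20 eggs/μL was the largest of the 3, at -0.67 (SE 0.21, unadjusted p = 0.00149, adjusted p = 0.167 in limma). From 20 to 100 eggs/μL it was -0.24 (SE 0.20, adjusted p = 0.553). None of the 6 members passed in any step, beside 0.683% of all genes higher and 0.175% lower from 1 to 5, 0.0212% and 0.471% from 5 to 20, and 8.43% and 0.243% from 20 to 100 eggs/μL. At an unadjusted p under 0.05, the *cah-4* step from 5 to 20 eggs/μL was the only such value among the members' 18. Of all 18896 genes, 1865 were under that p from 1 to 5, 1222 from 5 to 20 and 3957 from 20 to 100 eggs/μL.

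A slope over log2 density used all 4 densities together. *cah-4* fell by 0.21 for each doubling of density (SE 0.03, adjusted p = 9.55e-08 in limma). Its slope was -0.19 in *fog-2* alone (adjusted p = 0.00536) and -0.24 in N2 alone (adjusted p = 0.000117). The share of all genes with a negative slope past the threshold was 2.34% over both strains, 1.02% in *fog-2* and 0.487% in N2, and 12.8% had a positive slope past it over both strains. The fits within each strain were added after the data were seen.

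*cah-5* was the other member with a slope past the threshold, and its evidence was weaker. The *fog-2* medians were 13.7 tpm (0 to 66.7) at 1 egg/μL, 9.08 (0 to 37.8) at 5, 5.59 (0 to 38.6) at 20 and 7.36 tpm at 100 eggs/μL (0 to 24). The N2 medians were 23.4 tpm (0 to 44.2), 17.2 (0 to 51.7), 15.2 (0 to 39.3) and 6.93 tpm (0 to 43.1). Between 1 and 6 animals of each group were at 0, so the groups overlapped down to their lower end.

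The change of *cah-5* from 1 to 100 eggs/μL was -1.08 (SE 0.40, 95% interval -1.87 to -0.29, adjusted p = 0.0595 in limma), short of the threshold. It was -1.23 in *fog-2* (SE 0.51, adjusted p = 0.138) and -0.92 in N2 (SE 0.61, adjusted p = 0.572). A two-sided permutation test of 100000 resamples on the *fog-2* animals alone gave an unadjusted p of 0.0211, among 12 such tests. Its slope over log2 density was -0.17 (SE 0.06, adjusted p = 0.0399), which made 2 of 6 members lower and 0 higher. Without the animals of digit 3 in their names the slope was -0.11 (adjusted p = 0.409), and without those of digit 2 it was -0.14 (adjusted p = 0.247). Leaving out 6 animals that stood far from their groups in the number of genes detected gave -0.16 (adjusted p = 0.0710).

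**Figure D2:**
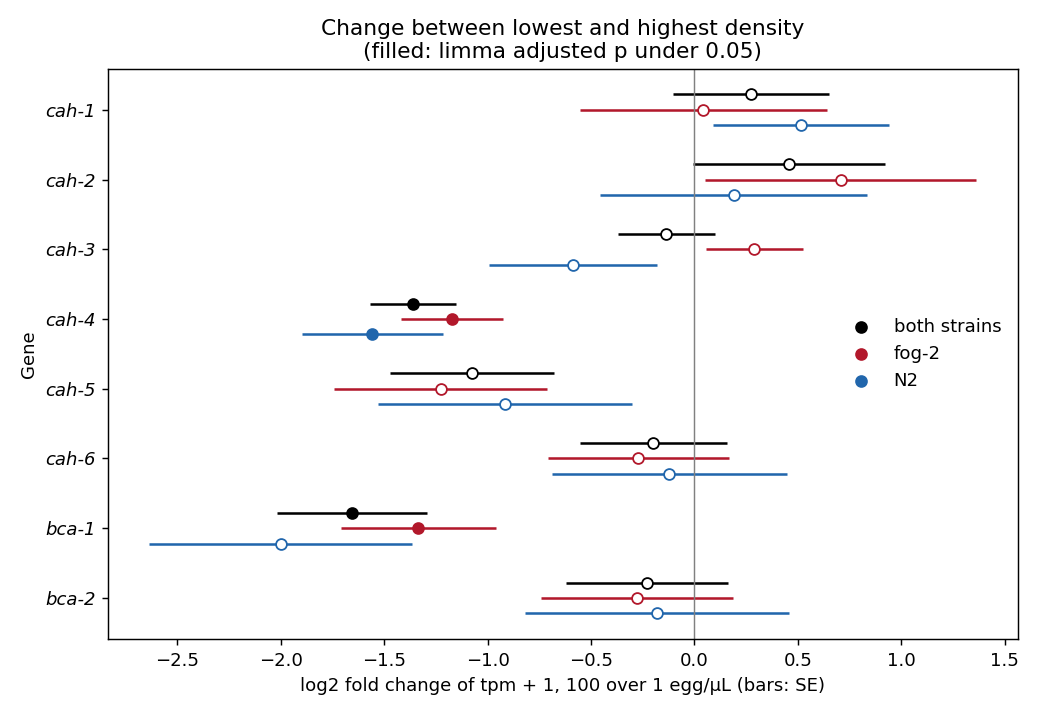
Log2 fold change of tpm + 1 between 100 and 1 egg/μL for the 6 alpha-class and 2 beta-class carbonic anhydrase genes, with bars of 1 SE, in both strains together (black), in *fog-2* (red) and in N2 (blue). Filled points passed an adjusted p of 0.05 in limma, which held for *cah-4* in all 3 fits and for *bca-1* in the merged and the *fog-2* fit.

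For *cah-3* no change with density was shown. The *fog-2* medians were 92.1 tpm (73.3 to 220) at 1 egg/μL, 87.8 (28.2 to 218) at 5, 124 (28.4 to 316) at 20 and 139 tpm at 100 eggs/μL (67.4 to 570). The N2 medians were 86.7 tpm (34.6 to 194), 67.0 (13.6 to 197), 102 (18.8 to 213) and 52.2 tpm (5.58 to 276). The groups overlapped at every density, and the medians at 100 eggs/μL lay on opposite sides of those at 1 egg/μL in the 2 strains. The merged change was -0.13 (SE 0.24, 95% interval -0.60 to 0.33, adjusted p = 0.781). It was 0.29 for *fog-2* animals alone and -0.59 for N2 animals alone. The difference between the strains was 0.87 (SE 0.46, unadjusted p = 0.0630, adjusted p = 0.769 in limma), which was not past the threshold.

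The abundant pair thus changed places in *fog-2*. Within single animals, *cah-4* was above *cah-3* in 9 of 14 *fog-2* L1s at 1 egg/μL, 15 of 22 at 5, 8 of 20 at 20 and 5 of 24 at 100 eggs/μL. In N2 the counts were 12 of 13, 19 of 22, 7 of 16 and 13 of 23. The difference in log2(tpm + 1), *cah-4* minus *cah-3*, had a mean of 0.67 ± 0.94 (SD, n = 14) at 1 egg/μL and -0.79 ± 1.08 (SD, n = 24) at 100 eggs/μL in *fog-2*. This within-animal difference fell by 1.46 (p = 0.00018 by a two-sided permutation test, or 0.00036 adjusted over both strains). In N2 it went from 1.39 ± 1.22 (SD, n = 13) to 0.42 ± 1.803 (SD, n = 23), a difference of -0.97 (p = 0.0923, same test), which did not pass.

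Tested within each group against 0, *cah-4* was higher than *cah-3* at 1 and 5 eggs/μL in *fog-2* (permutation test over animals, adjusted p = 0.0334 and 0.00992 over 8 tests) and in N2 (adjusted p = 0.0052 and 0.0008). At 100 eggs/μL in *fog-2* it was lower (adjusted p = 0.0052). At 20 eggs/μL in both strains and at 100 eggs/μL in N2 neither gene was shown to be higher (adjusted p = 0.36 for each). An unequal change of the pair was thus shown in *fog-2* and not in N2. The tests against 0 take tpm as comparable between both genes, which was not tested. All tests of this pair were added after the levels had been seen.

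**Figure D3:**
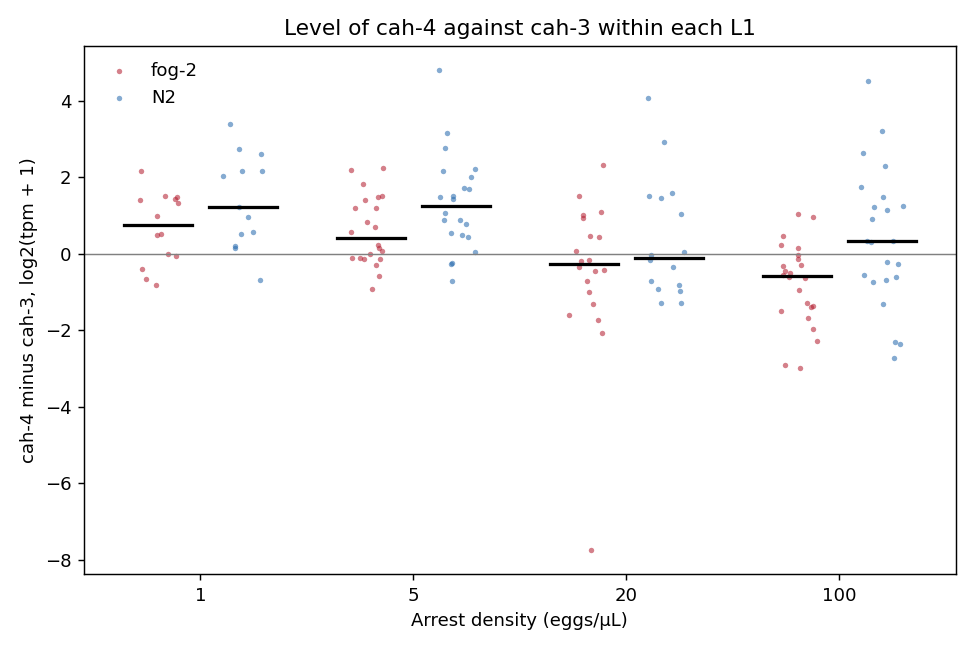
Difference between *cah-4* and *cah-3* in log2(tpm + 1) within each L1 against arrest density in eggs/μL, with *fog-2* in red, N2 in blue and black bars at the medians. The *fog-2* median goes from 0.75 at 1 egg/μL to -0.58 at 100 eggs/μL, and the point near -7.75 is the *fog-2* animal at 20 eggs/μL in which *cah-4* was listed at 0.

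The 3 other low members had no change that passed. *cah-1* had a merged change of 0.27 (SE 0.38, 95% interval -0.48 to 1.02, adjusted p = 0.712). Its *fog-2* medians were 7.78, 6.57, 10.7 and 6.02 tpm from the lowest to the highest density, and its N2 medians were 0, 0, 1.8 and 1.09 tpm. The highest *cah-1* values reached 147 tpm, in a *fog-2* animal at 20 eggs/μL, and 32.03 tpm in N2, beside animals at 0 in all 8 groups.

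*cah-2* had a change of 0.46 (SE 0.46, 95% interval -0.46 to 1.38, adjusted p = 0.587 in limma). The *fog-2* medians were 17.3, 31, 15.1 and 12.01 tpm, and the N2 medians 6.15, 4.85, 9.55 and 3.99 tpm. Between 3 and 6 animals of each group were at 0, and the highest reached 111 tpm in *fog-2* and 55.1 tpm in N2. This spread within every group was wider than the distance between the group medians.

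*cah-6* had a change of -0.20 (SE 0.35, 95% interval -0.90 to 0.51, adjusted p = 0.785 in limma). Its medians were 11.6, 9.91, 7.00 and 6.38 tpm in *fog-2* and 13.1, 16.7, 13.1 and 14.4 tpm in N2. It was detected in more animals than the other low members, in 74 of 80 *fog-2* and 65 of 74 N2 L1s. The lower ends of the intervals of *cah-1*, *cah-2* and *cah-6*, at -0.48, -0.46 and -0.90, lay above the estimate for *cah-4*. This cannot decide whether these members fell less in proportion, since the scale understates the change of low genes. In N2 at 1 egg/μL, *cah-1* had a mean log2(tpm + 1) of 0.71 and a median of 0 tpm. A fall as large as that of *cah-4* could not appear there.

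The summed level of the 6 genes had a mean of 379 tpm ± 90.6 (SD, n = 14) at 1 egg/μL and 298 tpm ± 102 (SD, n = 24) at 100 eggs/μL in *fog-2*. In N2 the sum was 397 tpm ± 142 (SD, n = 13) and 218 tpm ± 83.5 (SD, n = 23). *cah-4* made up a mean of 50.7% ± 13.8 (SD) of the sum at 1 egg/μL and 30.5% ± 11.99 at 100 eggs/μL in *fog-2*, and 62.3% ± 15.5 and 42.2% ± 18.7 in N2. The share of *cah-3* went from 33.1% ± 13.8 to 52.0% ± 18.4 in *fog-2*, and from 26.6% ± 14.4 to 36.9% ± 24.7 in N2.

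**Figure D4:**
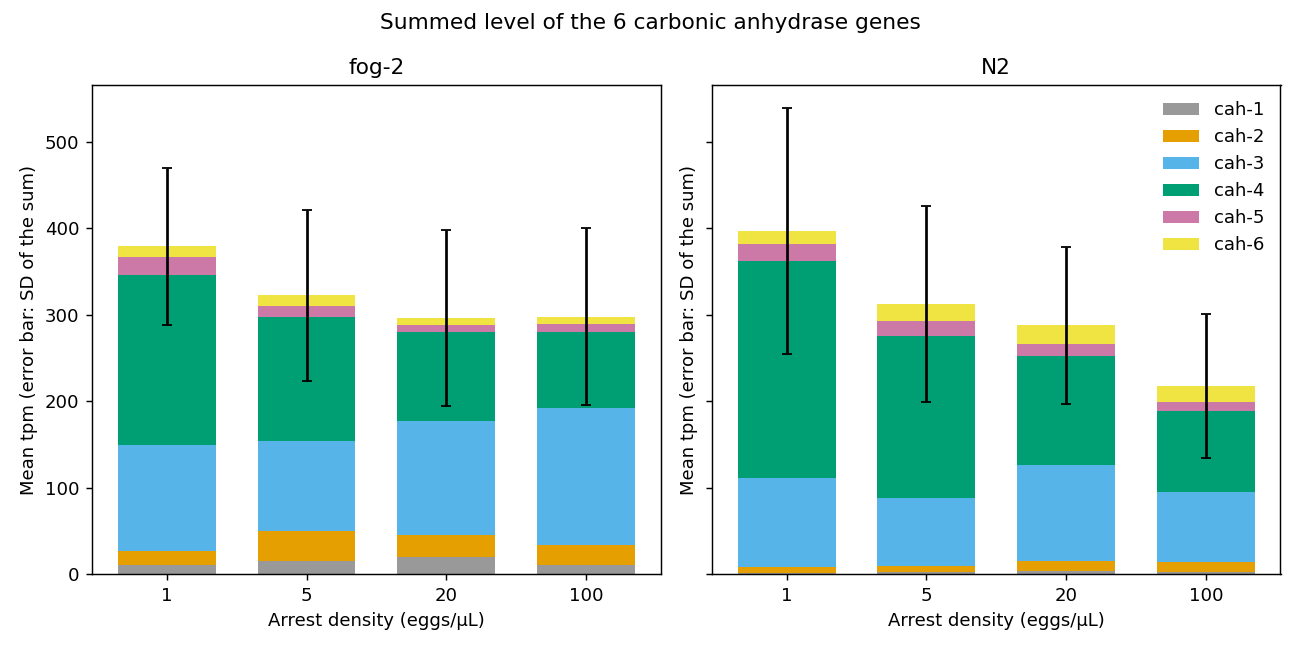
Mean tpm of the 6 carbonic anhydrase genes stacked by gene against arrest density in eggs/μL, for *fog-2* and N2, with error bars of 1 SD of the sum over animals. The sum goes from 379 to 298 tpm in *fog-2* and from 397 to 218 tpm in N2 between 1 and 100 eggs/μL, and the *cah-4* segment becomes smaller in both.

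Of the beta class, *bca-1* fell with density and *bca-2* had no change that passed. *bca-1* (T13C5.5, X:6201875-6204746, minus strand) had *fog-2* medians of 30.5 tpm (3.49 to 68.3) at 1 egg/μL, 29.6 (0 to 56.8) at 5, 15.1 (0 to 33.4) at 20 and 13.6 tpm at 100 eggs/μL (0 to 39.2). The N2 medians were 30.96 tpm (0 to 57.96), 24.1 (0 to 111.6), 14.8 (0 to 67.5) and 4.39 tpm (0 to 51.7). At 100 eggs/μL, 23 of 24 *fog-2* and 22 of 23 N2 animals lay below the 1 egg/μL median of their strain, though the groups overlapped.

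*bca-1* fell by 1.66 from 1 to 100 eggs/μL (SE 0.36, adjusted p = 0.00141 in limma). It fell in *fog-2* (-1.33, SE 0.37, adjusted p = 0.0236) and had -1.999 in N2 (SE 0.64, adjusted p = 0.237). Its slope was -0.26 for each doubling of density (SE 0.05, adjusted p = 0.000292). Without the animals of name digit 3 the merged change was -1.30 (adjusted p = 0.141), and with sets averaged by digit it was -1.06 (adjusted p = 0.370). In *fog-2* alone it no longer passed without the animals of any 1 digit (adjusted p = 0.0914 to 0.187), with sets averaged (0.215) or with the number of detected genes as a covariate (0.0733). The 1 N2 animal of digit 1 at 1 egg/μL was at 0 for *bca-1*, against a mean of 14.2 tpm in the 8 animals of that digit at 100 eggs/μL. *bca-2* (Y116A8C.28) had a change of -0.23 (SE 0.39, adjusted p = 0.775), with medians between 8.19 and 22.6 tpm in *fog-2* and between 10.1 and 18.3 tpm in N2.

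Genes that move or fix bicarbonate were counted in the merged fit, in which 10.3% of all genes tested passed as higher and 2.05% as lower. Of 11 bicarbonate and anion transporter genes tested of 12 listed, 3 rose and 0 fell, with a median change of 0.79 beside 0.24 for all genes. These were *abts-2*, of the anion/bicarbonate exchanger family (1.79, SE 0.34, adjusted p = 0.000216 in limma), *sulp-7* (1.41, SE 0.45, adjusted p = 0.0278) and *sulp-5* (0.87, SE 0.30, adjusted p = 0.0455), of the sulfate permease family. Of 6 bicarbonate-fixing carboxylase genes tested, 2 rose and 0 fell. They were *pcca-1* (0.70, SE 0.17, adjusted p = 0.00370) and *pccb-1* (0.92, SE 0.22, adjusted p = 0.00373), which encode the subunits of propionyl-CoA carboxylase. In the *fog-2* fit 1 transporter and 1 carboxylase gene passed as higher, and in N2 0 of either, beside 5.65% and 0.079% of all genes. The transporter genes had a median change of 0.66 in both strains, and the carboxylase genes 0.58 in *fog-2* and 0.19 in N2. All genes tested had 0.27 and 0.20.

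The same shares of all genes, 10.3% higher and 2.05% lower, stand behind the merged counts for proton transport and for genes of the BAG neurons. None of 21 vacuolar proton pump genes passed (median -0.09, from -0.47 to 0.70), nor any of 9 sodium-proton exchanger genes (median 0.09). At an unadjusted p under 0.05 in limma were 2 of the pump genes, *vha-12* (-0.47) and *vha-18* (0.70), and 1 exchanger gene, *nhx-1* (-0.76). Beside these, 4248 of all 16457 genes tested were under that p in the merged fit. None of 11 excretory canal genes passed either (median 0.08), with 0 at an unadjusted p under 0.05 in limma. Of 7 genes listed for the BAG neurons, which sense carbon dioxide, 2 rose in the merged fit. They were *gcy-9*, the receptor guanylate cyclase that responds to carbon dioxide (0.87, SE 0.28, adjusted p = 0.0273), and *tax-4*, a cyclic nucleotide-gated channel subunit (1.03, SE 0.30, adjusted p = 0.0174). In the *fog-2* fit 2 of the 7 passed as higher (median 0.63) and in N2 0 (median 0.12), beside 5.65% and 0.079% of all genes. All genes tested had medians of 0.27 and 0.20.

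Of the 7 rises named from the merged fit, 2 passed under both other scalings, as did the merged falls of *cah-4* and *bca-1*. The median change of all genes tested was 0.24, and it was 0.03 after quantile normalization and -0.02 with the number of detected genes as a covariate. The split of calls over all genes was 1700 higher and 338 lower, 503 and 433 after quantile normalization, and 156 and 280 with the covariate. Among the listed genes only *abts-2* (1.54 and 1.53, adjusted p = 0.00369 and 0.0103) and *pcca-1* (0.62 and 0.65, adjusted p = 0.0290 and 0.0347) passed under both. Changes that passed under neither were 0.40 and 0.30 for *gcy-9*, 0.70 and 0.57 for *tax-4*, 0.70 and 0.60 for *sulp-5*, and 1.28 and 0.36 for *sulp-7*. *pccb-1* passed after quantile normalization (0.83) and not with the covariate (0.65). All of these changes kept their sign. In the same fits *cah-4* had -1.39 and -1.55 (adjusted p = 1.26e-06 and 8.41e-07), and *bca-1* had -1.94 and -2.17 (adjusted p = 0.000324 and 7.97e-05).

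The labelled stage was checked against marker genes. Larval tissue genes for muscle, pharynx, intestine, epidermis and neurons were summed over 8 genes, with medians between 1596 and 3314 tpm in the 8 groups. Between 100 and 1 egg/μL 0 of 8 passed in limma. At an unadjusted p under 0.05 were 3 of the 8, beside 4248 of all 16457 genes tested. The epidermal collagen gene *dpy-7* alone of these had a median of 0, in 5 of 8 groups. All 6 yolk protein genes of adults had a median of 0 in every group except *vit-3* in *fog-2* at 100 eggs/μL. Of 15 oocyte and early embryo genes, 7 were higher at 100 eggs/μL in the merged fit, beside 10.3% of all genes tested. Of them, 3 passed after quantile normalization and 0 with the covariate for detected genes. In *fog-2* alone 6 of the 15 were higher and in N2 0, beside 5.65% and 0.079% of all genes. The median change of the 15 was 1.05 in *fog-2* and 0.28 in N2. Their summed level ranged from 0 to 59.7 tpm (median 21.5) at 1 egg/μL and from 14.5 to 472 tpm (median 72.0) at 100 eggs/μL in *fog-2*. In N2 it ranged from 0.62 to 67.9 tpm (median 21.8) and from 1.98 to 129 tpm (median 28.5). The part of these genes in the falls of *cah-4* and *bca-1* was not tested. The median number of genes detected at 1 tpm or more was 11570 at 1 and 13260 at 100 eggs/μL in *fog-2*, and 9830 and 10300 in N2. Without the 6 animals far from their groups in that number, *cah-4* had -1.29 (adjusted p = 9.23e-06).

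Across all animals of both strains the members varied largely apart from each other. After the mean of each strain was removed, the highest Pearson r of log2(tpm + 1) among the 15 pairs was 0.44 for *cah-1* and *cah-2*, followed by 0.34 for *cah-2* and *cah-5* and 0.33 for *cah-4* and *cah-6*. These values were 0.44, 0.37 and 0.34 after the mean of each strain and density was removed as well. The lowest was -0.13, for *cah-3* and *cah-4*. All values of an animal come from the same library and share its depth, so these are descriptions.

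The genes most like each member were taken as the 3 with the highest r among 18895 genes, with the strain means removed. For *cah-4* they were *nspe-2* (r = 0.51), *ahcy-1* (0.50), which encodes S-adenosylhomocysteine hydrolase, and *nspe-1* (0.50), and these values were 0.19, 0.34 and 0.17 once the density means were also removed. *nspe-1* and *nspe-2* are of a multigene family whose members may share reads. For *cah-3* they were *asp-6*, *clec-50* and *asp-3* (0.55, 0.55 and 0.53), which encode 2 aspartyl proteases and a C-type lectin, and with density removed they were 0.53, 0.52 and 0.51. Removing the density means thus lowered r for the genes named beside *cah-4* and left it within 0.03 for those beside *cah-3*.

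Among the low members the highest value was that of *cah-2* with *ceh-27*, a homeobox gene (0.63, and 0.63 with density removed), followed by *ift-81*, of intraflagellar transport (0.59), and ZK863.8 (0.59). *cah-5* was closest to *nlp-6*, a neuropeptide gene (0.51), *eak-4* (0.51) and *egl-3*, a proprotein convertase (0.50). *cah-1* was closest to *igcm-4* (0.52), the nuclear receptor gene *nhr-117* (0.46) and *deg-3*, an acetylcholine receptor subunit (0.45). *cah-6* was closest to *dma-1* (0.48), the neuropeptide gene *flp-21* (0.46) and *kvs-2*, a potassium channel gene (0.45). None of these 12 genes passed between 100 and 1 egg/μL in the merged fit. The genes named beside *cah-4* all fell in it, with log2 changes of -8.78 for *nspe-1* (adjusted p = 2.46e-32 in limma), -8.32 for *nspe-2* (adjusted p = 1.39e-46) and -1.01 for *ahcy-1* (adjusted p = 2.41e-05). Since they were chosen with the density means left in, and *cah-4* fell with density, these falls are not a separate finding.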

How the data were processed

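Single L1 larvae were profiled with a Smart-Seq2 protocol and Nextera tagmentation. After removal of rRNA and duplicate reads, the authors estimated abundance with RSEM and deposited it as tpm for 47639 transcript rows per strain. Bowtie and the build ce11 stand in the submitters' processing notes, and tool versions are not given in the sources used here. Of the columns, 146 were matched to a labelled animal, 8 *fog-2* columns at 1 egg/μL to their strain and density, and 0 were left out. Rows of the same sequence name were summed to 46744 genes. No columns were identical.

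Values were analysed as log2(tpm + 1) with limma 3.58.1 (mean-variance trend) in R 4.3.3 (package data.table, version 1.17.8), over genes of at least 1 tpm in at least 13 animals, with Benjamini-Hochberg adjustment and a threshold of 0.05. Permutation tests and figures used Python 3.11.15, matplotlib 3.10.9, pandas 2.3.3, scipy 1.17.1 and numpy 2.4.6. Positions are from the Ensembl annotation of WBcel235. The fits were tested on simulated data. Alternatives changed the pseudocount, the filter, the scaling, covariates, the variance model, the summing of rows and the animals included. The planned fit of *cah-4* isoform rows could not be run, since its transcripts share 1 row.

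The members and gene lists were chosen with earlier results of these data known. Named genes are the 6 members, both beta carbonic anhydrases, listed genes that passed in the merged fit and the 3 genes most like each member. Genes at an unadjusted p under 0.05 were named after their values were seen. Of the listed genes, *mccc-2* and *exc-2* were not found by symbol.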

Additional observations from a re-analysis of the deposited data

How the results depend on the processing

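Every alternative kept the sign of *cah-4* in the merged, single-strain, step and slope fits, from -1.55 to -1.23 in the merged fit, where it passed in all 14. Members called in the merged fit numbered 2 in place of 1 with a pseudocount of 5, after quantile normalization and with the number of detected genes as a covariate, since *cah-5* then passed (-0.74, -1.37 and -1.51). In each strain alone they numbered 0 in place of 1 with means by name digit, without digit 2 and without digit 3. For the slope they numbered 1 in place of 2 with a pseudocount of 0.1, a mean of at least 10 tpm, without animals far in detected genes, without digit 2, without digit 3, and in *fog-2* or N2 animals only. With the covariate, *cah-1*, *cah-2* and *cah-3* reversed to -0.16, -0.32 and 0.035, and *cah-6* did to 0.14 without digit 2. The *cah-5* step from 1 to 5 eggs/μL reversed to 0.046 without digit 1, and that from 20 to 100 eggs/μL (0.13) to -0.0084, -0.11, -0.40 and -0.0055 with a pseudocount of 5, quantile normalization, the covariate and without digit 1. The causes were not tested. Between densities, sets sharing a name digit had a median r of 0.13 in *fog-2* and 0.080 in N2 (from -0.15 to 0.38 over both). For sets of other digits it was -0.058 and -0.022. The mean over the sets of a density had been removed first, which ties these values to those of shared digits, so they add no separate evidence. Whether the digit pairs animals was not settled, and the main fits did not use it. With the digit as a replicate block, fitted in N2 only, *cah-4* had -1.62 (adjusted p = 0.0285 in limma) and members called stayed at 1. Over all genes, the merged calls were 502 higher and 87 lower with means by digit, 308 and 230 with a mean of at least 10 tpm, and between 180 and 756 higher and 57 and 262 lower without a digit. The authors report an average depth per animal, but the expression tables give none for single animals. The part of depth in the zeros of the low members was not tested.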
